A study of Mus musculus with 4 samples.

Results

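The 7 immunoglobulin heavy-chain constant genes Igha, Ighm, Ighd, Ighg1, Ighg2b, Ighg2c and Ighg3 were examined, chosen by symbol among the 32285 genes counted in each of 4 single-cell RNA sequencing libraries. All 7 were found, and each was read in plasma cells, B cells and cells that should lack it. The samples were CD45+ leukocytes of the colonic lamina propria, isolated with anti-CD45 magnetic beads from mice on a C57BL/6 background. The mice had drunk water with 2% dextran sulfate sodium (DSS), a polymer that damages the lining of the colon, for 7 days. Colons were collected on day 8, and each sample pooled 3 mice. The age is 10 weeks in the sample labels and 8 weeks in the study's description. The study set AhR+/+ mice against AhR-/- mice, which lack the aryl hydrocarbon receptor in every cell, but the labels give no genotype, so the samples are named 1 to 4, none is treated as a replicate of another, and no test between them was made. An untreated sample was not analysed here, and all 4 samples share the DSS treatment.

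Each antibody heavy chain joins a variable region to 1 constant region, and the constant region sets the isotype. A naive B cell makes IgM and IgD from Ighm and Ighd by alternative splicing of the same long transcript. During class switch recombination the DNA between the variable region and a downstream constant gene is deleted, and the cell then makes IgG, IgE or IgA. Plasma cells, the antibody-secreting end stage, carry very large amounts of the mRNA of their isotype. IgA is the antibody that is carried across the gut epithelium as a dimer held together by the J chain, and most plasma cells of a healthy gut make it.

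The members lie side by side on mouse chromosome 12, minus strand of GRCm38 (GENCODE M21). In transcriptional order they are Ighm (chr12:113418558-113422730), Ighd (chr12:113406604-113416324), Ighg3 (chr12:113356224-113361232), Ighg1 (chr12:113325240-113330523), Ighg2b (chr12:113302965-113307933), Ighg2c (chr12:113285325-113288932) and Igha (chr12:113254830-113260236), with Ighe just before Igha. Their identifiers in the files run from ENSMUSG00000076617 for Ighm to ENSMUSG00000095079 for Igha. Ighg2b and Ighg2c are the IgG2 genes that the reference holds.

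The 4 γ genes, which encode the IgG subclasses, resemble each other, so the first 60 coding bases of their first constant exon (CH1) are shown from the GENCODE M21 transcripts, 5′ to 3′, with capitals at each position where the 4 genes do not all have the same base:
Ighg1: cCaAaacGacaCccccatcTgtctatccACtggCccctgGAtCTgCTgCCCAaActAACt
Ighg2b: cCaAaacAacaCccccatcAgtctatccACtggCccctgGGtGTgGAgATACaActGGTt
Ighg2c: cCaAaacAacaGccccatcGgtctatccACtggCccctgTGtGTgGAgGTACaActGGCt
Ighg3: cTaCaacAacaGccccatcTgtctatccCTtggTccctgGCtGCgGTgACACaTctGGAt

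These bases lie at chr12:113330464-113330523 for Ighg1, chr12:113307874-113307933 for Ighg2b, chr12:113288873-113288932 for Ighg2c and chr12:113361173-113361232 for Ighg3, all on the minus strand. They differ at 22 of 60 positions. Over the 291 bases of CH1 the 6 pairs of γ genes were 78.4% to 88.3% identical. Of all 60-base windows of the coding sequence of the secreted forms, 3.80% of those of Ighg2b and 3.81% of those of Ighg2c occurred unchanged in the other gene, and no window of Ighg1, Ighg3, Igha, Ighm or Ighd occurred in another member. Reads from these shared windows cannot be told apart, and which end of the transcript was sequenced is not given in the sources used here, so calls between Ighg2b and Ighg2c carry that limit.

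The last 60 coding bases of the secreted forms of Igha, Ighm and Ighg1 are shown because the J chain binds the tailpiece of IgA and IgM, with the codon of the penultimate cysteine in capitals:
Igha: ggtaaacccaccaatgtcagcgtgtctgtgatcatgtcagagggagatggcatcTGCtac
Ighm: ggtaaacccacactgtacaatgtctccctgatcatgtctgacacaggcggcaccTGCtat
Ighg1: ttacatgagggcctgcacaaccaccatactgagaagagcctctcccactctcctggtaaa

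They lie at chr12:113258771-113258830, chr12:113420870-113420929 and chr12:113328979-113329038, minus strand. Igha and Ighm end in a cysteine codon followed by 1 more codon before the stop, and the secreted forms of Ighd and of all 4 γ genes have no cysteine codon there. The 4 γ genes end directly after the bases ggtaaa.

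Counts are unique molecular identifiers (UMIs), each standing for 1 captured transcript molecule, and are not corrected for transcript length. The libraries held 8493 to 13730 barcodes and 72509408 to 135516016 UMIs, and 43432 of 45229 barcodes had at least 200 genes and under 20% mitochondrial UMIs. Pairs of libraries shared 0.271% to 0.423% of barcodes, and none of the barcodes called plasma cells. A plasma cell was a barcode with at least 20 Jchain and at least 5 Xbp1 UMIs, which gave 68, 506, 99 and 50 cells in samples 1 to 4, 723 in all. B cells, gated on Cd79a, Cd79b, Ms4a1 and 1 further B cell gene, with no UMI of genes of another lineage, numbered 1758, 1369, 164 and 164. Removing barcodes with such UMIs had taken 1622, 3097, 316 and 351 barcodes from the B cells. T cells, the class that should lack the members, numbered 469, 1171, 520 and 593. No heavy-chain gene was used in any gate. Of the markers outside the gates, all 6 of B cells and all 6 of T cells were highest in their own class in every sample. Of the 6 of plasma cells, Mzb1, Derl3 and Tnfrsf17 were. As shares of all UMIs, Irf4 was higher in B cells, and Prdm1 and Sdc1 were higher in monocyte-macrophage cells in at least 1 sample. Immunoglobulin genes and Jchain were a median of 36.3% to 48.9% of a plasma cell's UMIs over the samples. The markers were not compared over UMIs outside these genes.

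In plasma cells Igha, the IgA gene, was the dominant isotype, meaning the member with the most UMIs in the cell, in 657 of 723 cells. It was dominant in 63 of 68 cells of sample 1, or 92.6% (95% exact binomial interval 83.7% to 97.6%). In sample 2 it was dominant in 478 of 506 cells, or 94.5% (92.1% to 96.3%). In sample 3 it was dominant in 80 of 99 cells, or 80.8% (71.7% to 88.0%), and in sample 4 in 36 of 50, or 72.0% (57.5% to 83.8%). Igha therefore led in every sample, with a median share of 86.7%, and the shares of samples 3 and 4 lay below those of samples 1 and 2. The intervals here and below cover counting error only, since 1 library was made per sample and cells of a sample share their mice.

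**Figure D1:**
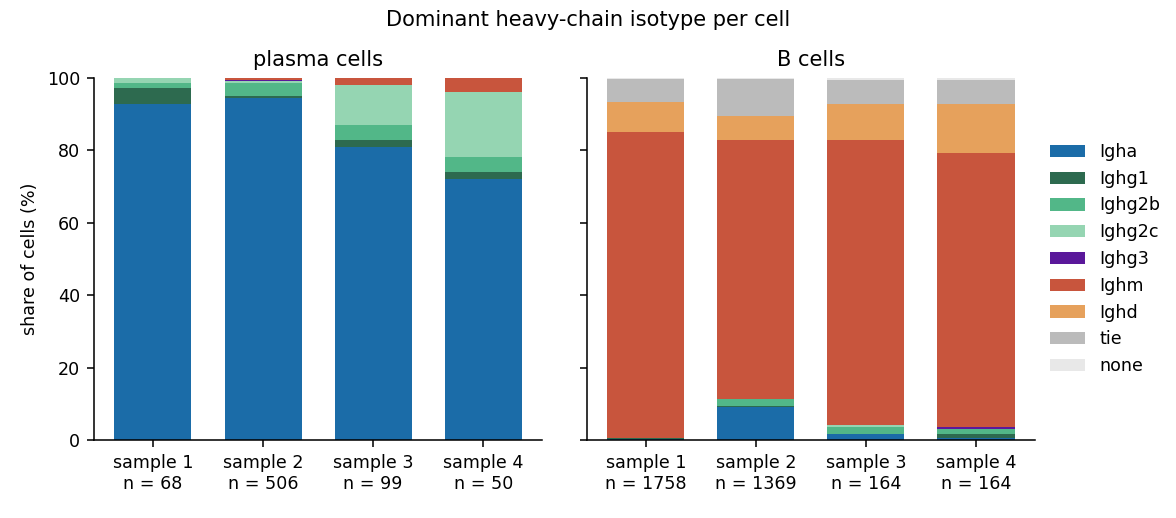
Share of plasma cells (left) and B cells (right), in percent, by dominant heavy-chain isotype in samples 1 to 4, with the number of cells under each bar; tie marks cells in which 2 or more members shared the highest count. Igha fills 72.0% to 94.5% of plasma cells and Ighm 71.4% to 84.2% of B cells.

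An IgG gene was dominant in 59 plasma cells, with 5 of 68 in sample 1 (7.35%), 25 of 506 in sample 2 (4.94%), 17 of 99 in sample 3 (17.2%) and 12 of 50 in sample 4 (24.0%). The subclass that led among them differed between samples. In sample 1 Ighg1 led, with 3 of 5 IgG cells, but so few cells leave a wide interval (14.7% to 94.7%). In sample 2 Ighg2b led, with 19 of 25 cells, or 76% (54.9% to 90.6%). Ighg2c led in sample 3, with 11 of 17 cells, or 64.7% (38.3% to 85.8%), and in sample 4, with 9 of 12, or 75.0% (42.8% to 94.5%). Ighg2c was dominant in 3 of the 25 IgG cells of sample 2, or 12% (2.55% to 31.2%). These intervals treat the cells of 1 library as independent, so they do not test a difference between samples. Ighg3 was dominant in 1 plasma cell of sample 2 and in none elsewhere, and a count of 0 in sample 4 allows a share of up to 6.0% of plasma cells.

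Ighm, the IgM gene, was dominant in 7 plasma cells, 0, 3, 2 and 2 in samples 1 to 4. Those of sample 2 held 63 to 314 Ighm UMIs, and in 2 of the 3 the dominant isotype had under 80% of the cell's heavy-chain UMIs. Those of samples 3 and 4 held 728 to 5461 Ighm UMIs with more than 99.7% of the cell's heavy-chain UMIs. Ighd, the IgD gene, was dominant in no plasma cell of any sample.

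An Igha-dominant plasma cell held a median of 3218, 2677, 3208 and 3207 Igha UMIs in samples 1 to 4, and these were 12.6%, 12.1%, 17.2% and 15.4% of all its UMIs at the median. The level per IgA cell thus stayed within a narrow range although the number of IgA cells differed widely between samples. Single barcodes spread far more, from 47 to 10516 Igha UMIs over the 4 samples. Some of sample 2 passed the gate with 54 to 86 Igha and 22 to 36 Jchain UMIs among 120594 to 181761 UMIs in all. Whether these are plasma cells was not tested. They are counted among the IgA cells of sample 2 and entered its gene comparison. IgG-dominant cells held a median of 4522, 1057, 1743 and 2414 UMIs of their dominant isotype. In sample 1, with its 5 IgG cells, that median was above the median of the Igha-dominant cells, and in the other 3 samples it was below.

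**Figure D2:**
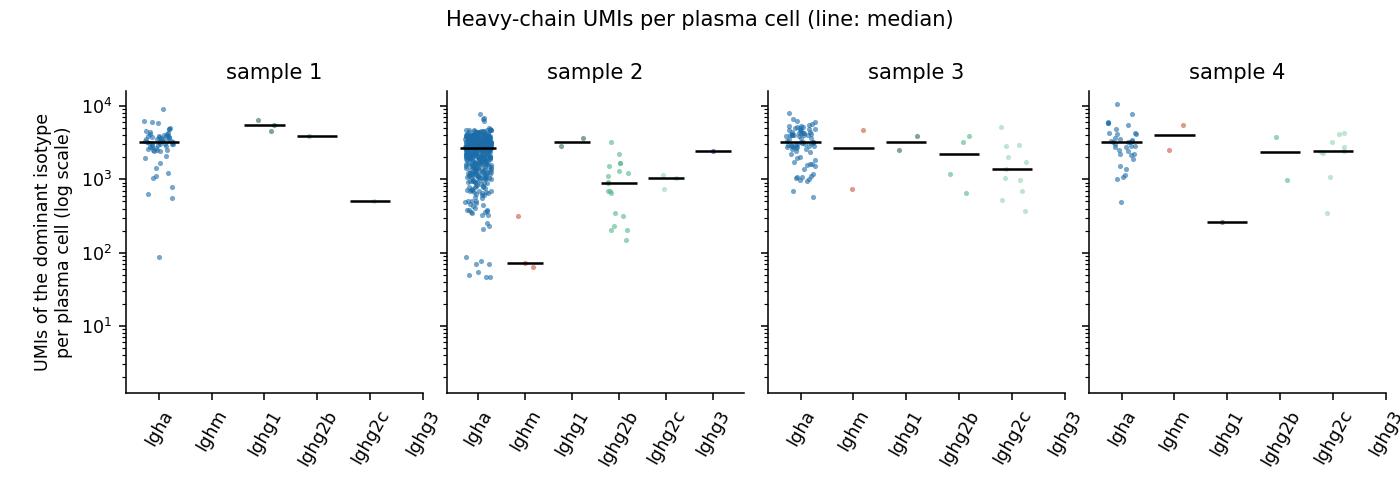
UMIs of the dominant isotype in each plasma cell on a log scale, by isotype and sample; points are cells and lines are medians. Igha cells center near 2677 to 3218 UMIs in all 4 samples, while each IgG subclass is carried by 19 cells or fewer per sample.

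Plasma cells were nearly pure in isotype. The dominant gene held a median of 99.94%, 99.74%, 99.95% and 99.83% of the heavy-chain UMIs of a cell in samples 1 to 4, and it held under 80% in 0, 6, 0 and 1 cells. A second isotype reached 10 UMIs in 207 of 723 cells and 100 UMIs in 6. The second isotype of the 207 cells was Ighm or Ighd in 119, an IgG gene in 73 and Igha in 15. Within Igha-dominant cells the mean Ighm count was 6.30, 6.73, 1.68 and 2.72 per cell, at medians of 0, 1, 0 and 0. As a share of all UMIs, Ighm was 228, 270, 77.7 and 103 CPM, the summed count scaled to a fixed total, in these cells against 71.2, 87.8, 49.0 and 55.9 CPM in T cells.

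Plasma cells held most transcripts of Igha. Igha made up 0.188%, 0.947%, 0.282% and 0.180% of all UMIs of libraries 1 to 4, and the gated plasma cells held 96.0%, 93.1%, 93.7% and 96.2% of them. The 24, 172, 29 and 12 barcodes richest in Igha held at least 50% of each library's Igha UMIs. Ighm had a smaller part of its UMIs in plasma cells, at 0.955%, 5.85%, 42.7% and 48.8%. For 50% of the Ighm UMIs 960, 1139, 38 and 10 barcodes were needed, more than for Igha in samples 1 to 3 and fewer in sample 4. In samples 3 and 4 a single Ighm-dominant plasma cell held 34.7% and 32.8% of the library's Ighm UMIs. γ transcripts came from few cells. Of the subclass that led the IgG cells, 2, 8, 4 and 4 barcodes held 50% of the UMIs, and the richest barcode held 37.2% (Ighg1), 11.2% (Ighg2b), 23.3% and 18.2% (Ighg2c). Some of the other subclasses rested mostly on 1 cell. In sample 1 single cells held 91.2% of the Ighg2b and 92.9% of the Ighg2c UMIs. In sample 2 a single cell held 85.0% of the Ighg3 UMIs, and in sample 4 a single cell held 76.5% of the Ighg1 UMIs. In sample 3 the richest of 2 Ighg1-dominant plasma cells held 57.5% of the Ighg1 UMIs. Levels of γ genes summed over plasma cells are for that reason not ranked between samples.

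The J chain transcript differed between IgA and IgG plasma cells. Jchain is part of the gate, so the values that follow are descriptive. IgA cells held a median of 1541, 974, 1000 and 847 Jchain UMIs in samples 1 to 4, and IgG cells a median of 693, 166, 174 and 154. All 59 IgG cells lay below the median of the IgA cells of their own sample, although the ranges overlapped in every sample. In plasma cells gated without Jchain (at least 5 Xbp1, at least 5 Mzb1 and at least 2 Derl3, Sdc1 and Tnfrsf17 UMIs in sum), the medians were 1549, 1098, 1042 and 745 in 59, 387, 45 and 26 IgA cells. They were 693, 168, 133 and 168 in 5, 18, 11 and 10 IgG cells, all 44 of which lay below the IgA median of their sample. With that gate 1 of 44 IgG cells and 1 of 517 IgA cells had fewer than 20 Jchain UMIs, as did 3 of 7 IgM cells, so the Jchain gate leaves out some IgM cells. The median share of IgG cells was 13.5% with it and 12.3% with the Jchain gate. The gate without Jchain counts Tnfrsf17, which was more than 2-fold higher in IgA than in IgG cells of samples 2, 3 and 4. Whether that gate leaves out IgG cells was not tested, so these shares do not show that IgG cells are kept. Among the plasma cells with no UMI of another lineage the median share of IgG cells was 7.47%, from 7 of 91 cells. It was 0 of 7, 1 of 53, 3 of 23 and 3 of 8 cells in samples 1 to 4.

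**Figure D3:**
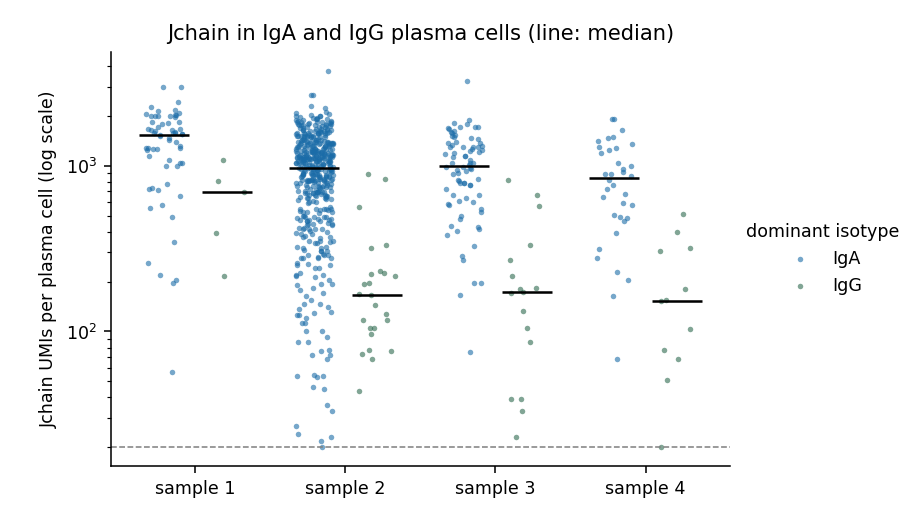
Jchain UMIs per plasma cell on a log scale in IgA-dominant (blue) and IgG-dominant (green) cells of samples 1 to 4; lines are medians and the dashed line is the gate at 20 UMIs. IgA medians are 847 to 1541 and IgG medians 154 to 693.

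Genes outside the immunoglobulin loci were then compared between IgA and IgG plasma cells, as fold of summed UMIs in CPM, here of UMIs outside immunoglobulin genes and Jchain, after adding 5 CPM, for genes of at least 50 CPM in either group. With cells of 1 sample there is no replicate and no test, and "higher" or "lower" means past 2-fold. Only sample 2 had at least 20 cells of both isotypes (478 and 25). There 75 of 4008 genes were higher in IgA cells (1.87%) and 50 were lower (1.25%). Requiring the same direction past 2-fold in samples 2, 3 and 4, which had at least 12 cells of both, left 15 of 3407 genes higher (0.44%) and 3 lower (0.0881%). This second comparison was added after the first had been seen. Of 20 genes of plasma cell secretion and identity, 3 were higher in sample 2 and 2 of 20 in all 3 samples. Of the homing receptors that passed the level filter, 2 of 10 were higher in sample 2 and 1 of 7 in all 3 samples. None of either list was lower. Of the proliferation genes 2 of 10 were lower in IgA cells of sample 2 (Mki67 and Ube2c), as was 1 of 6 genes of class switching and germinal centres (Il21r) and none of 12 mature B cell genes, and none of these lists had a gene past the fold in all 3 samples. The median log2 fold in sample 2 was 0.05 for the secretion list, -0.09 for the homing list and -0.07 for all genes tested.

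Tnfrsf17, which encodes BCMA, the receptor through which plasma cells receive survival signals, was 123, 63.3 and 78.9 CPM in IgA cells of samples 2, 3 and 4 and 7.26-fold, 8.48-fold and 3.24-fold higher than in IgG cells. The IgG values rest on 6, 1 and 4 UMIs. Txndc5, a protein disulfide isomerase of the endoplasmic reticulum, was 1195, 1245 and 1434 CPM and 4.64-fold, 2.72-fold and 2.31-fold higher, with 121, 149 and 118 UMIs in the IgG cells. Itgb7, a chain of the gut-homing integrin α4β7, was 112, 87.1 and 92.8 CPM and 2.30-fold, 2.39-fold and 3.14-fold higher. Its partner Itga4 was at log2 folds of -0.33, -0.23 and -0.26. Ccr10, the receptor for the mucosal chemokine CCL28, was 172 CPM in IgA cells of sample 2, 9.0-fold higher than in IgG cells. In samples 3 and 4 it was at 44.5 and 71.2 CPM, at folds of 1.68 and 7.44, and with 8 and 1 UMIs in IgG cells.

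The 5 genes with the largest smallest fold over the 3 samples were Tmem176a, Tnfrsf17, Tmem176b, Atp1b1 and Pls1. Tmem176a and Tmem176b, neighbouring genes for membrane proteins, were 3.51-fold, 3.45-fold and 5.46-fold and 3.45-fold, 3.09-fold and 3.13-fold higher in IgA cells. Pls1, an actin-bundling protein, was 9.18-fold, 11.7-fold and 2.66-fold higher. The part of epithelial transcripts in the Pls1 folds was not tested. Rell1, Cyp4f18 and Lef1 were the 3 genes lower in IgA cells. Only 1 of the 3 stayed lower without plasma cells holding 3 or more UMIs of T-cell, monocyte-macrophage or neutrophil gate genes. The part of transcripts of these lineages in the folds of the 3 genes was not tested. Lef1, a transcription factor of the Wnt pathway, was at 93.7, 52.4 and 20.1 CPM in IgA cells of the 3 samples. Its log2 folds of IgA over IgG cells were -1.12, -1.28 and -3.52. For Lef1 in sample 4 a single IgG cell held 74.1% of the IgG cells' UMIs. Sdc1, the surface proteoglycan by which plasma cells are sorted, had log2 folds of 1.42, 0.22 and -0.60, so its direction differed between samples. Mzb1, a chaperone of the secretory pathway, was at -0.60, -0.84 and -0.53 and did not pass the fold.

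**Figure D4:**
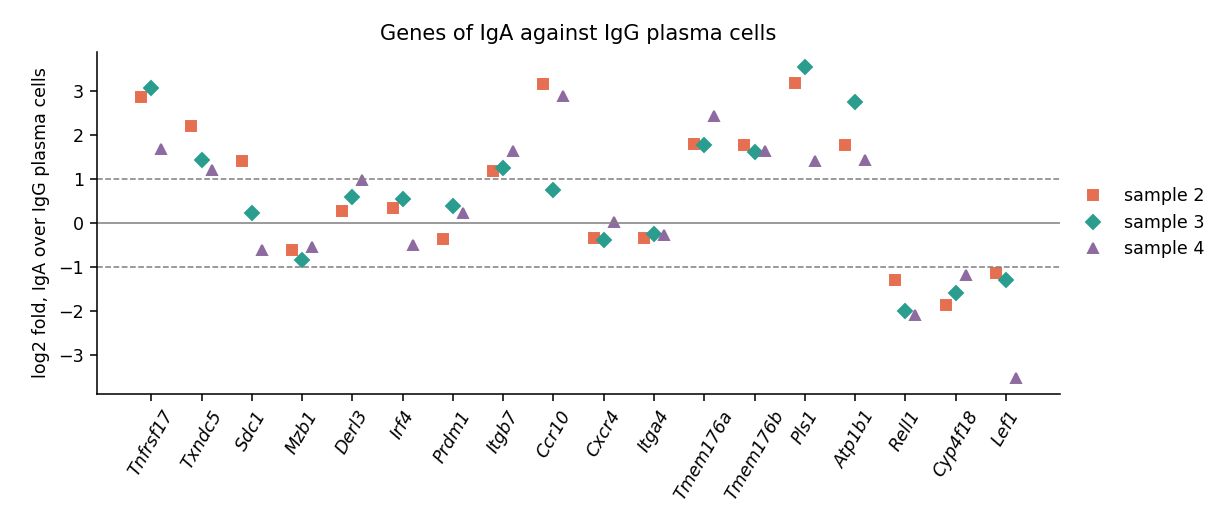
Log2 fold of IgA over IgG plasma cells, each over a sample's summed UMIs, in samples 2, 3 and 4 for genes of the secretion and homing lists and for genes past 2-fold in all 3 samples; dashed lines mark 2-fold, and the list genes drawn were chosen after their values were seen. Tnfrsf17, Txndc5 and Itgb7 lie above the upper line in all 3 samples and Sdc1 crosses 0.

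UMIs of other lineages accompanied plasma cells. Epcam, an epithelial gene, was at 246 CPM in IgA and 73.3 CPM in IgG cells of sample 2, at 102 and 79.4 CPM in sample 3 and at 119 and 110 CPM in sample 4. Summed T-cell gate genes were at 239 and 268 CPM in sample 2, at 71.2 and 61.1 in sample 3 and at 158 and 78.5 in sample 4. Summed neutrophil gate genes were at 23.6 and 14.7 CPM in IgA and IgG cells of sample 2, at 44.5 and 110 in sample 3 and at 21.7 and 105 in sample 4. Monocyte-macrophage gate genes were at 47.4 and 88.0, 67.3 and 94.7, and 89.7 and 73.2 CPM. In sample 2 the fibroblast gene Col3a1 was at 83.3 CPM in IgA and 4.19 CPM in IgG cells, and summed B-cell gate genes were at 895 and 1448 CPM. The 5 genes with the largest fold in sample 2 alone were Hbegf, Agr2, Krt8, Gpx2 and Il1rapl2, of which Agr2, Krt8 and Gpx2 are epithelial genes, and a single IgA cell held 69.8% of the Agr2 UMIs and 24.7% of the Krt8 UMIs. Among the genes lower in sample 2 were Apoe, a macrophage gene (354 CPM in IgA and 1758 CPM in IgG cells), and Ngp, a neutrophil gene of which a single IgG cell held 89.4% of the UMIs. The part of such transcripts in the folds was not tested. Keeping plasma cells with under 3 UMIs each of the T-cell, monocyte-macrophage and neutrophil gate genes left 303 genes higher and 413 lower in sample 2, and 33 and 13 in all 3 samples, with 14 of the 15 genes still higher and 1 of the 3 still lower. This setting did not filter on Epcam or Col3a1, so it does not bear on epithelial or fibroblast transcripts.

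Igha outside plasma cells was highest in sample 2 and lowest in sample 4 in each of the other 4 classes. Over B cells, T cells, neutrophils and monocyte-macrophage cells it was 56.1 to 80.8 CPM in sample 1, 542 to 653 in sample 2, 71.3 to 169 in sample 3 and 24.6 to 36.8 in sample 4. The 169 CPM are of neutrophils, of which 1 cell held 253 of 727 Igha UMIs. T cells held a mean of 0.452, 3.09, 0.756 and 0.234 Igha UMIs per cell in samples 1 to 4, neutrophils held 0.415, 2.04, 0.781 and 0.206, and monocyte-macrophage cells 0.636, 3.72, 0.829 and 0.253. B cells were at 0.559, 3.85, 0.543 and 0.189, which is 1.16-fold to 1.44-fold the T-cell level in CPM. In sample 2, the library with the most plasma cells, 90.7% of T cells and 87.6% of B cells had at least 1 Igha UMI, against 19.7% and 17.7% in sample 4.

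**Figure D5:**
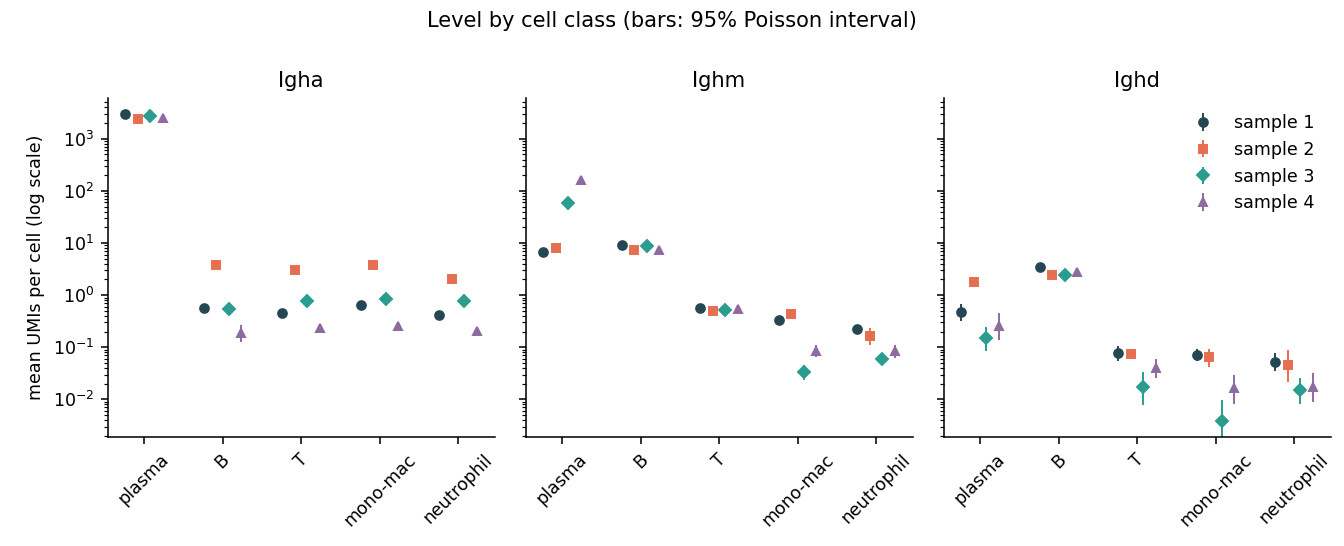
Mean UMIs per cell of Igha, Ighm and Ighd on a log scale in 5 cell classes of samples 1 to 4, with 95% exact Poisson intervals, most of them smaller than the symbol. Igha in the 4 classes other than plasma cells is highest in sample 2, and Ighm in T cells lies at 0.50 to 0.574 UMIs in all samples.

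The leading γ gene of T cells was that of their own sample's plasma cells, and in B cells this was not so in every sample. In T cells of sample 3, Ighg2c was 7.62% of heavy-chain UMIs and Ighg2b 1.20%, where the plasma cells of that sample had 6.40% and 3.02%. In T cells of sample 4 Ighg2c was 5.61%, where plasma cells had 14.3%. In T cells of sample 2 Ighg2b was 1.81% and Ighg2c 0.294%, where plasma cells had 1.86% and 0.247%. In T cells of sample 1 Ighg1 was 3.71% and in plasma cells 7.27%. The leading γ gene of the T cells was in each sample the leading γ gene of its IgG plasma cells, resting on 20, 80, 57 and 29 UMIs in samples 1 to 4. In B cells of sample 3 Ighg2b was 2.17% and Ighg2c 1.11% of heavy-chain UMIs, and in those of sample 4 Ighg2b was 1.67%, Ighg1 1.21% and Ighg2c 0.23%, from 29, 21 and 4 UMIs. Ighg2b thus led in B cells of both samples, where Ighg2c led in plasma cells.

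Ighm differed between the classes that should lack it. T cells held 0.574, 0.50, 0.519 and 0.533 Ighm UMIs per cell in samples 1 to 4, while neutrophils held 0.226, 0.165, 0.0602 and 0.0848 and monocyte-macrophage cells 0.337, 0.441, 0.0331 and 0.0864. Per cell, the T-cell level was nearly the same in all samples and stood 2.54-fold to 8.63-fold above that of neutrophils. For Igha the T-cell mean was 0.968-fold to 1.51-fold that of neutrophils. Depth differed between these classes. In CPM, T cells held 49.0 to 87.8 of Ighm, 1.72-fold to 4.11-fold the neutrophil level. The T-cell CPM of Igha was 0.423-fold to 0.859-fold that of neutrophils, below it in every sample. T cells are given as the background of Igha and the γ genes, and neutrophils beside them for Ighm. Fewer than 1% of T cells in every sample held at least 10 Ighm UMIs (1, 0, 3 and 1 cells).

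B cells were mostly of the unswitched isotypes. Ighm was dominant in 1481 of 1758, 977 of 1369, 129 of 164 and 124 of 164 B cells, or 84.2% (82.5% to 85.9%), 71.4% (68.9% to 73.7%), 78.7% (71.6% to 84.7%) and 75.6% (68.3% to 82.0%). Ighd was dominant in 147, 92, 16 and 22 cells, or 8.36%, 6.72%, 9.76% and 13.4%. A further 112, 139, 11 and 11 cells had a tie. B cells carried a mean of 9.32, 7.43, 8.68 and 7.24 Ighm UMIs, and the Ighm CPM was 14.4-fold to 27.1-fold that of T cells and 24.7-fold to 102-fold that of neutrophils. Ighd, which marks mature naive B cells, was 31.6-fold to 232-fold the T-cell level. At least 1 UMI of both genes was found in 87.0%, 77.3%, 73.2% and 79.3% of B cells, against 4.26%, 3.25%, 0.577% and 2.19% of T cells, whose median depth was higher (4898 to 7704 against 4256 to 5478 UMIs per cell). Thinned to 1000 UMIs per cell, both were found in 28.7%, 26.9%, 28.0% and 28.0% of B cells. The spread between samples was narrower in the thinned cells, where every share was also lower. The part of depth in the differences between samples was not tested.

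Switched B cells, with Igha or a γ gene dominant, made up 12 of 1758 B cells in sample 1, or 0.683% (0.353% to 1.19%), 162 of 1369 in sample 2, or 11.8% (10.2% to 13.7%), 7 of 164 in sample 3, or 4.27% (1.73% to 8.60%), and 6 of 164 in sample 4, or 3.66% (1.35% to 7.79%). The high share of sample 2 came with that sample's high level of Igha in T cells, and 126 of its 162 switched cells were dominated by Igha. After the T-cell mean of the sample was subtracted from every member, Ighm included, 94 cells of sample 2 (6.87%) and 21 of sample 1 (1.19%) were switched, and the counts of samples 3 and 4 were 7 and 6. In sample 2 the share was 5.84% (41 of 702) where 1 switched gene, or Ighm and Ighd together, held at least 80%. It was 7.29% (42 of 576) in B cells of sample 2 without Jchain UMIs. Cells with at least 10 Igha UMIs were 59 of 1369 B cells in sample 2, or 4.31% (3.30% to 5.52%), against 15 of 1171 T cells, or 1.28% (0.719% to 2.10%). Of these 59 B cells 45 also held at least 3 Ighm or Ighd UMIs, as did 4 of the 15 T cells. In the other samples 4, 1 and 0 B cells and no T cells reached 10 Igha UMIs. T cells held a mean of only 0.0683, 0.0173 and 0.0118 Ighg2b UMIs per cell in samples 2, 3 and 4. Ighg2b was above this low background in B cells, at 6.59-fold to 24.5-fold the T-cell CPM in the 3 samples with a T-cell count above 3. It dominated 28 of the 31 IgG-dominant B cells of sample 2, but only 3 and 2 of 164 B cells in samples 3 and 4. Ighg3 was 6.07-fold the T-cell CPM in sample 2, where T cells held a mean of 0.00769 Ighg3 UMIs. At least 10 γ UMIs were found in 2, 24, 2 and 2 B cells and in no T cell of any sample. Of the 24 in sample 2, 13 also held at least 3 Ighm or Ighd UMIs.

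Switched B cells of sample 2 (162 cells) were compared with its unswitched B cells (1125 cells), the only sample with at least 50 of both. The gate genes and immunoglobulin genes were not counted. Of 3886 genes, 164 were higher (4.22%) and 23 lower (0.592%) in the switched cells. Of 14 proliferation genes measured, 10 were higher and none lower, with a median log2 fold of 1.51 beside 0.00 over all genes. Mki67 was 6.18-fold, Stmn1 5.43-fold and Top2a 5.30-fold higher. Fas, a receptor of germinal centre B cells, was 4.57-fold higher, the 1 of 8 genes counted of the class switch and germinal centre list that passed the fold. Bcl6, a transcription factor of germinal centres, was at a log2 fold of -0.11. Nt5e and Cd80, surface proteins of memory B cells, were 7.61-fold and 3.80-fold higher, the only 2 of 17 mature B cell genes past it. The median of that list was -0.24. Herpud1 and Tent5c were 2 of 14 secretion genes past the fold, both higher.

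S1pr1, which guides exit from lymphoid tissue, was lower in switched B cells, at a log2 fold of -1.20, the 1 of 9 homing receptors counted that passed the fold. The 5 genes of largest fold were Etl4, Frmd5, Adgrg6, Pclaf and Nt5e, from 10.6-fold to 7.61-fold, and a single cell held 92.2% of the Frmd5 UMIs in switched cells. Switched cells had a median of 6299 UMIs and 2483 genes, against 4147 UMIs and 1837 genes in unswitched cells, and the part of depth in these folds was not tested. Of the 162 cells 126 were called from Igha, and the part of free Igha RNA and of doublets in these calls was not tested. With T-cell means subtracted, 160 of the 164 genes stayed higher and all 23 stayed lower. That setting called 94 switched cells among the same B cells of sample 2, so the overlap does not measure the part of free RNA or doublets.

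Genes with the level pattern most like a member over the 5 classes and 4 samples (20 points, which share libraries and depth) were found by Pearson correlation of log2(CPM + 1), given as a description. For Igha they were Tnfrsf17 (r = 0.954), Chac1, Fkbp11, Derl3 and Sgpp2 (0.938). For Ighm they were Pou2af1 (0.936), Tnfrsf13c, Vpreb3, Ly6d and Cacna1e (0.888), and for Ighd Pax5 (0.986), Scd1, Fcmr, H2-Ob and Bank1 (0.973).

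Variable and light chains were read in the same plasma cells. A heavy-chain variable gene with at least 3 UMIs was found in 450 of 657 IgA cells, spread over 73 variable genes, and in 41 of 59 IgG cells, spread over 24. The most frequent in IgA cells was Ighv1-50 in sample 1 (7 of 50 cells), Ighv1-64 in sample 2 (50 of 319), Ighv1-26 in sample 3 (7 of 58) and Ighv1-81 in sample 4 (3 of 23). Of the 73 only Ighv1-81 was found in IgA cells of all 4 samples, a count limited by the 23 cells of sample 4. Among those found in 3 samples were Ighv1-64 (56 cells), Ighv1-39 (31) and Ighv1-26 (25). Ighv2-3 led in 4 of 9 IgG cells of sample 4. Lambda UMIs exceeded kappa UMIs in 12.7%, 6.69%, 13.8% and 11.1% of IgA cells and in 0 of 59 IgG cells, which allows a share of up to 5.08%. Variable genes are near-identical families, so that assignments among them are uncertain, and these genes were chosen after their values were seen.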

How the data were processed

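The authors deposited, for each of the 4 samples, raw UMI counts per gene and barcode as a sparse matrix with lists of genes and barcodes, without normalization. The matrix header names Cell Ranger 7.0.1 and the submitters' processing notes name Cell Ranger 5.0.0, STAR, Seurat and mm10. The gene symbols and barcodes in the deposited lists have no unit.

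Barcodes with at least 200 genes and under 20% mitochondrial UMIs were kept. Cell classes were set by UMI thresholds on marker genes, not by clustering. Neutrophils and monocyte-macrophage cells were gated on at least 3 UMIs of Csf3r and Cxcr2 or of Csf1r, Adgre1 and Fcgr1. No doublet caller was run: barcodes with UMIs of another lineage were left out of every class but plasma cells, where this was an alternative. Free RNA was read as the mean UMI count per T cell. Shares have 95% exact binomial (Clopper-Pearson) and levels 95% exact Poisson intervals. A count of 0 was read as up to 3 counts. Cells of a library are not independent samples, and no p-value, paired comparison or leave-one-out comparison was made. CPM for gene comparisons left out 393 immunoglobulin genes and Jchain. Named genes are the members, those past 2-fold in 5 fixed lists (2 to 4 of largest fold each), the 5 genes of largest fold in each direction and the 5 genes most like Igha, Ighm and Ighd. The lists were counted without 3 genes that are not reported here, of which 1 also entered the B cell gate. The planned comparison of IgA with IgM plasma cells had too few IgM cells. Members and lists were chosen with earlier results of these data known. The gene comparison was tried on simulated counts drawn from a pooled profile, with changes larger than the 2-fold limit. These counts hold no differences between cells, so that trial does not measure errors from single cells. Positions and sequences are from GENCODE M21. Tools were Python 3.11.15, numpy 2.4.6, scipy 1.17.1, pandas 2.3.3 and matplotlib 3.10.9.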

Additional observations from a re-analysis of the deposited data

Results flagged for a closer look

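Ighe, the IgE gene, is not a member and was flagged as a signal outside the main measurement, above the 3 counts that a count of 0 allows. It had 58 UMIs in 11 barcodes of sample 2 and 34 UMIs in 2 barcodes of sample 3, against 1 UMI in sample 1 and 0 in sample 4. In sample 3 a single barcode held 33 of them, and that barcode also held 6216 Igha and 1530 Jchain UMIs. In sample 2 the 3 richest barcodes held 21, 16 and 12 Ighe UMIs, beside 1238 Igha UMIs in the first, 14 in the second, and 3713 Ighg1 with 14 Igha UMIs in the third. The second of these was the one in which Ighe exceeded Igha, and it held 9 Jchain and 0 Xbp1 UMIs among 33653 UMIs. No class was compared for Ighe.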

How the results depend on the processing

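No paired analysis was possible because the labels put no sample in a group and the 4 samples are not replicates of each other; leaving out replicates does not apply for the same reason. Igha led the plasma cells of every sample under all alternatives tried. Of 162 alternative values 121 moved by less than their counting interval or 1.5 times, and 41 moved further. The median Igha share of plasma cells was 92.5% (84 of 91 cells) in plasma cells with no UMI of another lineage, against 86.7%, and that of IgG 7.47%, against 12.3%. The median share of switched B cells, 3.96%, was 6.81% under the stricter B cell gate. The median share of Ighd-dominant B cells, 9.06%, was 5.36% under the stricter B cell gate, 15.2% with free RNA subtracted and 14.3% in cells thinned to 1000 UMIs, so it depended on these choices. The median Igha level per T cell, 0.604, was 0.524 in T cells without Jchain UMIs, and that of Ighm, 0.526, was 0.125 in neutrophils. Igha in plasma cells, 101619 CPM, was 104542 under the stricter gate and 162293 over UMIs outside immunoglobulin genes.

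Counts of genes past 2-fold depended on how cells and genes were chosen. For IgA against IgG plasma cells of sample 2, 75 higher and 50 lower became 19 and 8 at a minimum of 200 CPM, where fewer genes were tested. They became 303 and 413 without cells holding 3 or more UMIs of T-cell, monocyte-macrophage or neutrophil gate genes. Only 13 IgG cells entered there, and cells with UMIs of Epcam or Col3a1 were not left out. Over 3 samples, 15 and 3 became 6 and 0, and 33 and 13. For switched against unswitched B cells, 164 and 23 became 30 and 6 at 200 CPM, 339 and 151 at the 80% setting, and 299 and 103 with free RNA subtracted. In B cells the 80% setting asked that 1 switched gene, or Ighm and Ighd together, hold at least 80%. The setting of 80% left 41 switched cells in sample 2, under the minimum of 50 used for that comparison. The cells without any UMI of another lineage left 1 IgG plasma cell in sample 2, so that gene folds were not computed for them. The exclusion at 3 UMIs, the 3-sample comparison and the subtraction for B cell genes were added after the data had been seen. The number of cells limits the IgG subclasses, with 0 to 19 plasma cells for each in a sample, and IgM, with 0 to 3.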
